A study of Mus musculus with 6 samples.

Results

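The 6 genes described here encode the enzymes of middle glycolysis, from the isomerisation of glucose 6-phosphate to the first reaction that yields ATP, leaving out phosphofructokinase. They are Gpi1, Aldoa, Aldoc, Tpi1, Gapdh and Pgk1, taken by symbol from a table of 15118 genes, and each symbol occurred once. All 6 were among the 13080 genes tested. Total RNA was sequenced from the whole hearts of 6 Black-Swiss embryos at E12.5, mid-gestation in the mouse. The 3 control hearts (numbers 2, 5 and 9) had the genotype NKX2-5 Cre/WT with Hif1a WT/flox, and the 3 mutant hearts (numbers 5, 8 and 10) had NKX2-5 Cre/WT with Hif1a Null/flox. All 6 embryos thus carried Cre recombinase in 1 copy of Nkx2-5, a gene switched on early in the cells that form heart muscle, and all had a loxP-flanked Hif1a allele. Cells of the heart without Cre activity keep the unrecombined allele in both groups, where the mutant embryos have 1 null allele in every cell and the controls a wild-type one. Where Cre has recombined the loxP-flanked allele, control cells keep 1 wild-type copy of Hif1a and mutant cells keep no working copy. The comparison asks which transcripts differ between these genotypes of Hif1a, the gene for the subunit through which HIF1 senses oxygen. The labels number the hearts and say no more of their origin (litter, pooling), so the p-values reflect the spread among these 6 libraries, some of which may be technical.

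Glycolysis splits glucose into pyruvate with a net gain of ATP and does not need oxygen. Its middle part turns a hexose phosphate into a pair of triose phosphates, oxidises these and passes their phosphate to ADP, and each of the enzymes described here works in both directions, unlike phosphofructokinase, which acts between the isomerase and aldolase. Several glycolytic genes, Pgk1 and Aldoa among them, are textbook HIF1 targets, induced when oxygen is low through DNA elements with the core letters ACGTG or GCGTG.

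The promoter stretches of Pgk1 and Gpi1 are printed because these genes stood at opposite ends among the 5 abundant members, Pgk1 with the largest and Gpi1 with the smallest difference between genotypes. Both are the 250 bases before the RefSeq start (GRCm38.p6, the mm10 assembly), for Pgk1 at chrX:106186850-106187099 on the plus strand and for Gpi1 at chr7:34230337-34230586 on the minus strand. Capitals mark ACGTG or GCGTG on either strand, so that CACGT and CACGC are the same motifs read from the other strand.
Pgk1: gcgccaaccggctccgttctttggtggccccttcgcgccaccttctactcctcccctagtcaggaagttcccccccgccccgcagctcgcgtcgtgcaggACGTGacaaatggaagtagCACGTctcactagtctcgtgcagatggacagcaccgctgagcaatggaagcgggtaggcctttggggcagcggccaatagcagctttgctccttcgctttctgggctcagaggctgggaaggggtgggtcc
Gpi1: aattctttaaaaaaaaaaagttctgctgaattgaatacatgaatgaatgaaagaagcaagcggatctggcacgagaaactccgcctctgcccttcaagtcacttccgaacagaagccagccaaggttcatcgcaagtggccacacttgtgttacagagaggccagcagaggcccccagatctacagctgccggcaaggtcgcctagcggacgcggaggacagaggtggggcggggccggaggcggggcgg

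Pgk1 held ACGTG at 2 places, at -150 and -131 from the start, and Gpi1 held neither motif. In the RefSeq windows of 300 bases (250 before and 50 after a start), 19.6% of 32851 promoters held ACGTG at least once. ACGTG occurred at least 2 times in 8.21%, GCGTG at least once in 32.4%, and either motif in 43.8%. Tpi1 held neither motif in its window, as for Gpi1. Aldoa has 3 listed starts, and the windows of starts 2 and 3 share 1 ACGTG, at -126 and -202 from them, while that of start 1 held none. Gapdh held GCGTG at -54 and -44 and ACGTG at 43. The first of 2 starts of Aldoc held GCGTG at -50 and 12 and ACGTG at 28, and the second held GCGTG at -39. The short stretches around the motif in Aldoa (chr7:126799364-126799392, minus strand), the -54 motif in Gapdh (chr6:125165811-125165839, minus strand) and the upstream motif in Aldoc (chr11:78323011-78323039, plus strand) are shown for comparison with Pgk1, with that motif in capitals (the -44 motif of Gapdh lies in the same stretch, in lower case).
Aldoa: tgtggctcgagtCACGTcctagcggggcg
Gapdh: gttcggagcccaCACGCttggtgcgtgca
Aldoc: ccacctctgaggGCGTGgccttaccctag
A match describes these letters only, and an empty window says nothing of sites elsewhere in or near the gene. Whether matches go with the differences between genotypes was not tested.

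The unit throughout is RPKM, a read count divided by exon length and library size. The exons listed as used cover 2565 bases for Gapdh and 2244 for Pgk1, against 1420 and 1825 in their longest coding transcripts. Levels of different genes can thus be compared only roughly. Library depth, implied by the steps between low values, ran from 101400000 reads in mutant 8 to 159300000 reads in mutant 10. A whole multiple of such a depth would fit as well, and the lowest well-fitting value was taken. The first principal component (45.3% of the variance) had control 2 at one end and mutant 8 at the other. Summed 5S ribosomal RNA rows followed the same order of hearts, with 10.7, 31.2 and 71.9 RPKM in controls 2, 5 and 9, against 31.3, 192 and 116 RPKM in mutants 5, 8 and 10. Their part in the results below was not tested. Control 9 and mutant 8 lacked transcripts of the chromosome Y gene Eif2s3y, which the other 4 hearts expressed. All 10 cardiomyocyte markers were present, and their summed level was 9830 to 11560 RPKM in control and 10896 to 12589 RPKM in mutant hearts. Summed macrophage markers (all 8 present) were lower in every mutant heart (8.49 to 21.6 RPKM) than in any control heart (26.4 to 31.7 RPKM). The 8 epicardial and mesenchymal markers had the same pattern (199 to 280 against 315 to 341 RPKM). Endothelial markers (8 of 8 present) summed to 120 to 141 RPKM in control and 111 to 135 RPKM in mutant hearts, and erythroid markers (8 of 10 in the table) to 13961 to 16570 and 11718 to 21062 RPKM. None of the tested genes in these lists passed the test described below, which 0.818% of all tested genes passed. With so few genes this says little about the cell types. The part of cell composition in the results was not tested. In bulk RNA, fewer cells of a type and less RNA per cell cannot be told apart. Hif1a itself measured 61.1, 46.4 and 46.4 RPKM in controls 2, 5 and 9, against 75.7, 55.0 and 77.7 RPKM in mutants 5, 8 and 10, with a log2 change of 0.43 (limma adjusted p = 0.36). The labels do not name the exons removed, so this value does not check the deletion.

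All 6 members had lower means in the mutant hearts, by different amounts. Aldoc, Pgk1 and Tpi1 fell, to 26.8%, 47.5% and 53.8% of the control mean, while Aldoa (64.7%), Gapdh (77.3%) and Gpi1 (86.8%) had lower means without passing the test. So 3 of 6 members passed an adjusted p of 0.05 in limma, a linear model fitted across all tested genes, where 0.818% of all tested genes passed and 0.398% passed as lower. In 5 of 6 members every mutant heart lay below every control heart, as in 9.43% of all tested genes. The median log2 change of the 6 members was -0.76, against -0.03 over all tested genes, where a log2 change is the mutant minus the control mean of log2(RPKM + 1). The 6 transcripts together made up 0.985%, 1.14% and 1.21% of the summed RPKM in controls 2, 5 and 9, against 0.718%, 0.747% and 0.712% in mutants 5, 8 and 10.

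**Figure D1:**
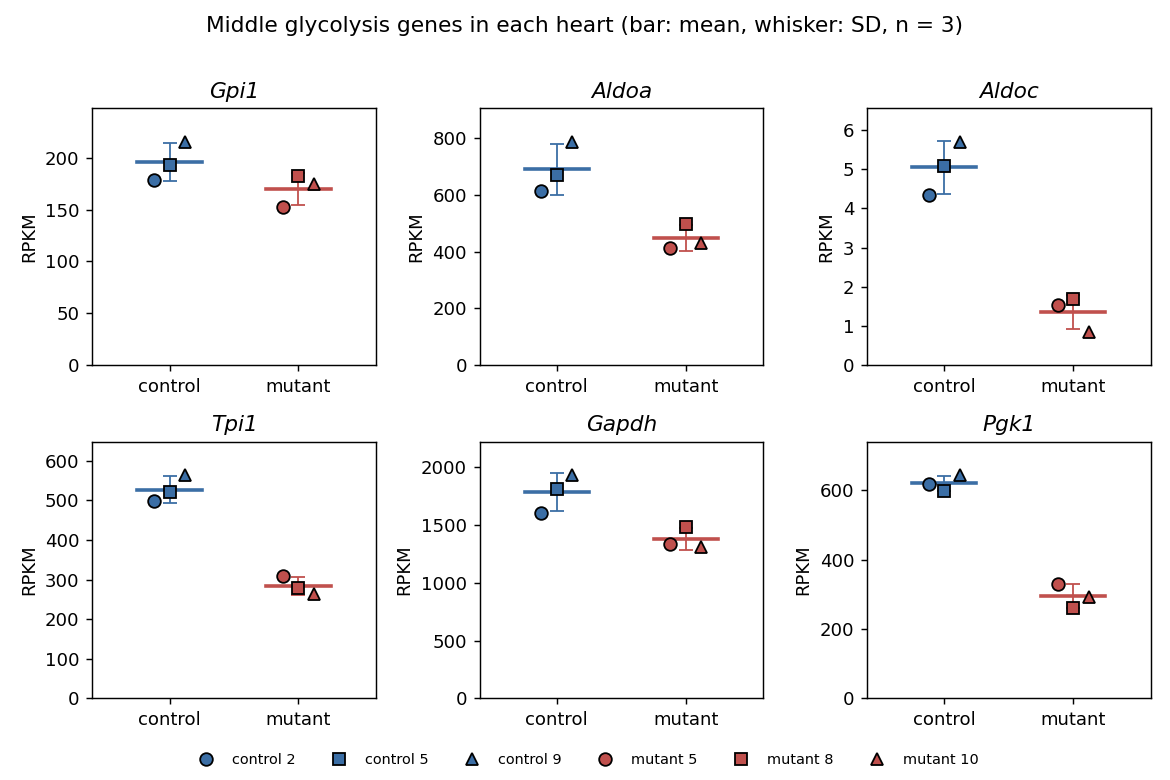
RPKM of the 6 members in each of the 3 control hearts (blue) and 3 mutant hearts (red), on linear axes that start at 0, with 1 symbol per heart, the mean as a bar and the SD as a whisker. Groups are apart in every panel except that of Gpi1, where mutant 8 (182 RPKM) lies above control 2 (179 RPKM).

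Glucose-6-phosphate isomerase, encoded by Gpi1 (ENSMUSG00000036427, mm10 chromosome 7, 34201330 to 34230336, minus strand), converts glucose 6-phosphate to fructose 6-phosphate and stands where the pentose phosphate and hexosamine routes leave glycolysis. Its transcript measured 179, 193 and 216 RPKM in controls 2, 5 and 9, against 153, 182 and 175 RPKM in mutants 5, 8 and 10. It was the only member whose groups overlapped. The log2 change was -0.20 ± 0.11 SE (limma adjusted p = 0.53), with a 95% interval from -0.45 to 0.04, so that neither no difference nor a drop of the size seen for Gapdh lies outside it. BX537302.1, a non-coding gene on the opposite strand with 741 exon bases in common with Gpi1, was listed at 20.8 ± 3.08 RPKM in the control and at 19.1 ± 2.80 RPKM in the mutant group. The common bases are over all annotated exons, and whether the exons used for the values include them was not tested. With no statement on whether counting used strand, reads in the common bases cannot be told apart.

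The aldolases cleave fructose 1,6-bisphosphate into dihydroxyacetone phosphate and glyceraldehyde 3-phosphate. Aldoa, the muscle and widely expressed form (ENSMUSG00000030695, chromosome 7, 126795234 to 126800751, minus strand), measured 613, 671 and 788 RPKM in controls 2, 5 and 9, against 412, 500 and 430 RPKM in mutants 5, 8 and 10. The highest mutant heart lay well below the lowest control heart. The control hearts were spread widely (SD 89.0 RPKM around a mean of 691), and the log2 change of -0.62 ± 0.12 SE narrowly missed the threshold (limma adjusted p = 0.063, 95% interval -0.90 to -0.34). It passed in 4 of 16 alternative settings, with an adjusted p of 0.033 among the 4 hearts left without control 2 and mutant 8, and reached 0.27 without mutant 10. The span of Aldoa overlaps that of Fam57b on the opposite strand by 3084 bases, of which 25 are exon in both (all annotated exons, not only those used). Fam57b was listed at 450 ± 68.7 RPKM (SD, n = 3) in the control group and at 309 ± 48.9 RPKM in the mutant group, between 63.8% and 72.9% of Aldoa in each heart, and whether its reads come from Aldoa was not tested.

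Aldoc, known as the brain aldolase (ENSMUSG00000017390, chromosome 11, 78322968 to 78327781, plus strand), was rare in these hearts and fell most. It measured 4.36, 5.09 and 5.70 RPKM in controls 2, 5 and 9, against 1.54, 1.68 and 0.844 RPKM in mutants 5, 8 and 10. The lowest control heart was above the highest mutant heart by more than the range of either group. The log2 change was -1.37 ± 0.16 SE (limma adjusted p = 0.0044), a 3.73-fold lower mean RPKM, and only 8 of 13080 tested genes had a more negative log2 change. The size on the log2 scale depends on the pseudocount because the values are low, with -1.87 at a pseudocount of 0.1 and -0.66 at 5, and the gene passed in both cases. About 439 reads stood behind the lowest value, an estimate from the exons listed and the implied depth. This gives a counting SD of 0.07 in log2 reads. The spread between hearts was 0.24 on log2(RPKM + 1), an unlike scale on which low values vary less. Aldoc made up 0.705%, 0.752% and 0.718% of summed aldolase RPKM in controls 2, 5 and 9, against 0.373%, 0.335% and 0.196% in mutants 5, 8 and 10, so the total was set by Aldoa in both genotypes. The longest stretch identical between the longest Aldoa and Aldoc transcripts was 26 bases.

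Triosephosphate isomerase interconverts the triose phosphates that aldolase releases, so that both can go on down the pathway. Its gene Tpi1 (ENSMUSG00000023456, chromosome 6, 124810586 to 124814296, minus strand) measured 498, 520 and 563 RPKM in controls 2, 5 and 9, against 308, 278 and 264 RPKM in mutants 5, 8 and 10. Both groups were tight, with SDs of 33.0 and 22.5 RPKM, and far apart. Tpi1 fell by 0.89 ± 0.10 SE on the log2 scale (limma adjusted p = 0.0042, 95% interval -1.12 to -0.67). It passed in 15 of 16 alternative settings, the exception being the 4 hearts with chromosome Y expression, where its log2 change was -0.83 (limma adjusted p = 0.053).

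Gapdh (ENSMUSG00000057666, chromosome 6, 125161715 to 125166467, minus strand) encodes glyceraldehyde-3-phosphate dehydrogenase, which oxidises glyceraldehyde 3-phosphate and makes NADH, and is a customary reference gene for RNA measurements. It was the most abundant member, and 14 of 13080 genes were higher in control hearts. It measured 1606, 1813 and 1931 RPKM in controls 2, 5 and 9, against 1340, 1488 and 1307 RPKM in mutants 5, 8 and 10. Every mutant heart was below every control heart, by a small margin between mutant 8 and control 2. The log2 change was -0.37 ± 0.11 SE (95% interval -0.62 to -0.12), with an unadjusted p of 0.0080 and a limma adjusted p = 0.24, and Gapdh passed in none of 17 alternative settings.

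The table also lists 28 rows whose transcripts match Gapdh over at least 500 bases at 90% identity or more, 25 of them annotated as pseudogenes and 17 with at least 99% identity. The others were GAPDH and Peli2, annotated as protein-coding, and Gm7293, a non-coding gene that matched on the opposite strand. In the control group Peli2 was listed at 1.07 RPKM and Gm7293 at 8.30 RPKM, and the sums below include both. No row matched another member by this rule. The 28 rows are named as uncertain, since reads from identical sequence can be placed at any copy. Gm20899, annotated on chromosome Y, was listed at 56.7 RPKM in control 9 and at 33.8 RPKM in mutant 8, the hearts that lacked Eif2s3y transcripts. Its values there thus cannot be read as expression of a chromosome Y gene, and where the reads of the other rows came from was not tested. Gm12070, a processed pseudogene with 99.9% identity over 1002 bases, was listed at 411 ± 16.3 RPKM in the control group and at 305 ± 12.8 RPKM in the mutant group, and Gm5559 at 148 ± 6.61 and 102 ± 8.06 RPKM. Summed over the 28 rows the level was 1128, 1162 and 1220 RPKM in controls 2, 5 and 9, against 890, 799 and 811 RPKM in mutants 5, 8 and 10. These rows thus made up 41.3%, 39.1% and 38.7% of the summed RPKM of Gapdh and the 28 rows in the control hearts and 39.9%, 34.9% and 38.3% in the mutant hearts. RPKM is divided by exon length, so these are not shares of reads.

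Of the 28 rows 27 had a negative log2 change, with a median of -0.50 and a range from -0.54 to 0.09. In 23 every mutant heart lay below every control heart, as in 9.43% of all tested genes. The 5 rows past the threshold were Gm3272, Gm5559, Gm12033, Gm2574 and Gm10481, with limma adjusted p between 0.037 and 0.049, and they are 5 of the 52 lower calls among all tested genes. A further 14 rows had an adjusted p under 0.1, so the count swings with the setting, from 0 after median centring to 16 after rescaling without haemoglobin genes. It was 0 without control 2, 5 or 9 or mutant 8 or 10 and 17 without mutant 5. These rows are not separate observations. With Gapdh and the 28 rows summed into 1, an alternative chosen after seeing the data, the log2 change was -0.42 ± 0.10 SE (limma adjusted p = 0.15), close to that of Gapdh alone.

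**Figure D2:**
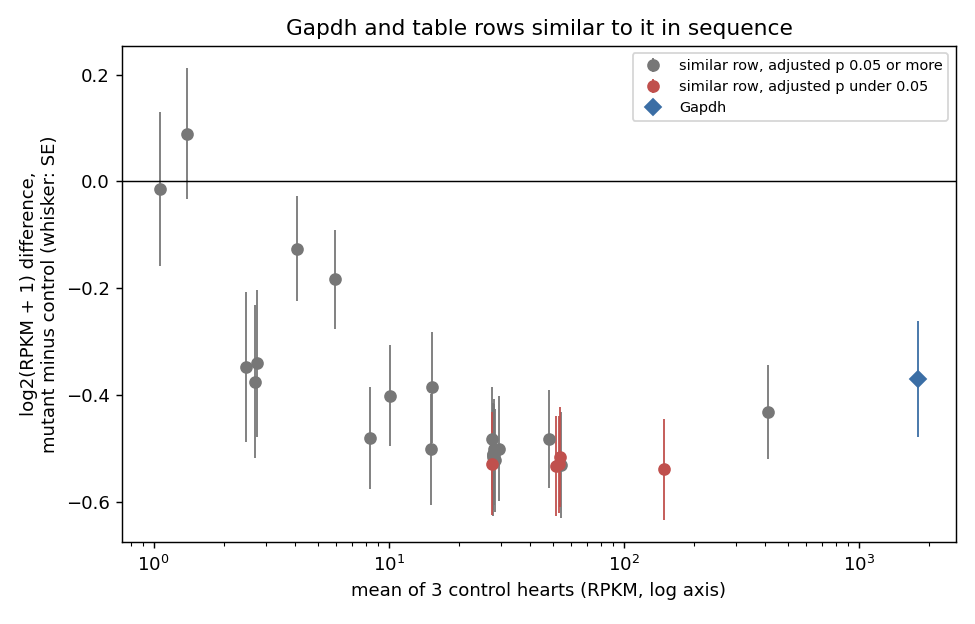
Log2 change (mutant minus control, whisker: SE) against the mean of the 3 control hearts in RPKM on a log axis, for Gapdh (blue) and 28 rows similar to it (red where the limma adjusted p was under 0.05). The 20 rows at 10 RPKM or more in control hearts sit between -0.54 and -0.39, below the value of Gapdh (-0.37).

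Phosphoglycerate kinase passes the phosphate of 1,3-bisphosphoglycerate to ADP and so makes the first ATP of the pathway. Pgk1 (ENSMUSG00000062070, chromosome X, 106187100 to 106203699, plus strand) measured 617, 598 and 643 RPKM in controls 2, 5 and 9, against 329, 261 and 292 RPKM in mutants 5, 8 and 10. The control hearts agreed closely (SD 22.5 RPKM, 3.64% of the mean), and no mutant heart came near them. Pgk1 fell by 1.08 ± 0.11 SE on the log2 scale (limma adjusted p = 0.0021, 95% interval -1.32 to -0.84), the smallest p of the 6 members, and it passed in all 16 alternative settings. Because the gene is X-linked, the 4 hearts with chromosome Y expression were also compared alone (controls 2 and 5 against mutants 5 and 10), and there the log2 change was -0.97 (limma adjusted p = 0.023). The testis form Pgk2 is not analysed here.

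**Figure D3:**
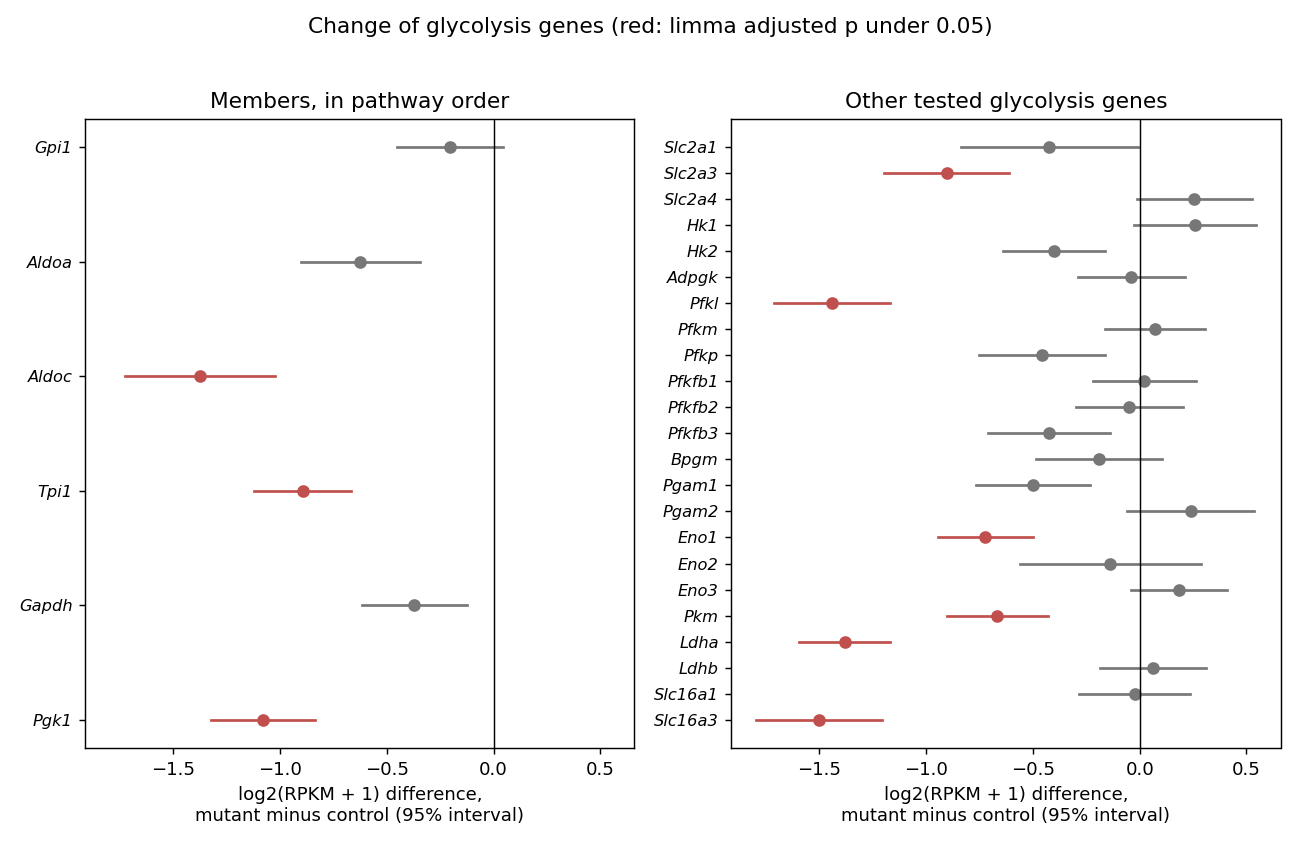
Log2 change with its 95% interval for the 6 members in pathway order (left) and the 23 other tested glycolysis genes (right), red where the limma adjusted p was under 0.05. The 3 red members lie at -1.37 (Aldoc), -1.08 (Pgk1) and -0.89 (Tpi1), and the interval of Gpi1 alone among the members includes 0.

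The order of the mean RPKM was the same in both genotypes, while the neighbours that overlapped were not. Order and overlaps both depend on the exon length used for each gene. In control hearts the means ran from Gapdh (1784 RPKM) through Aldoa (691), Pgk1 (619), Tpi1 (527) and Gpi1 (196) to Aldoc (5.05). Aldoa and Pgk1 overlapped there, with Aldoa higher in 2 of 3 hearts, while the other neighbours were apart in every heart. In mutant hearts the overlapping neighbours were Pgk1 (294 RPKM) and Tpi1 (283 RPKM), with Pgk1 higher in 2 of 3 hearts, and Aldoa (447 RPKM) stood clear of both. Gapdh made up 45.7%, 47.7% and 46.6% of the summed RPKM of the 6 members in controls 2, 5 and 9, against 52.7%, 54.9% and 52.9% in mutants 5, 8 and 10.

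Ratios to Gapdh within the same heart are nearly free of library scaling and set the members beside each other. The log2 ratio of Pgk1 to Gapdh averaged -1.52 in control and -2.23 in mutant hearts, a difference of -0.71 ± 0.16 SE. In RPKM, Pgk1 stood at 38.4%, 33.0% and 33.3% of Gapdh in controls 2, 5 and 9, against 24.6%, 17.5% and 22.3% in mutants 5, 8 and 10. The difference of the log2 ratio was -0.52 ± 0.09 SE for Tpi1, -1.004 ± 0.13 SE for Aldoc and -0.25 ± 0.06 SE for Aldoa, and for Gpi1 it was 0.17 ± 0.07 SE, so relative to Gapdh the mean of Gpi1 was higher in mutant hearts. The groups did not overlap in any of the 5 ratios. Among all tested genes other than Gapdh, the ratio to Gapdh was lower in every mutant heart than in any control heart for 0.375%, and higher for 51.2%, so the position of Gpi1 is not particular to it. Each of the 5 ratios gave an exact permutation p of 0.10 (two-sided, also 0.10 after adjustment over the 5), the smallest that 3 against 3 hearts allows. With pseudocounts of 0.1 and 5 the difference for Aldoc was -1.50 and -0.29.

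**Figure D4:**
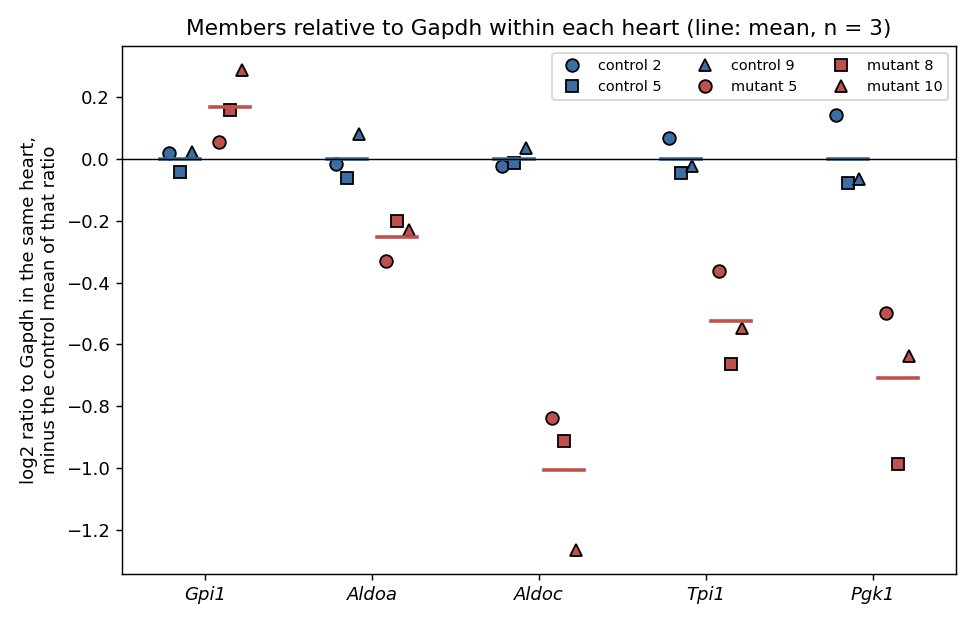
Log2 ratio of 5 members to Gapdh in the same heart, minus the mean of that ratio over the 3 control hearts, with 1 symbol per heart and the group mean as a line. Mutant hearts (red) lie below all control hearts (blue) for Aldoa, Aldoc, Tpi1 and Pgk1, and above them for Gpi1, as for 51.2% of all tested genes other than Gapdh.

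Single hearts deviated in different ways for different members. Among the control hearts, control 2 was lowest and control 9 highest for Gpi1, Aldoa, Aldoc, Tpi1 and Gapdh, but Pgk1 was lowest in control 5. Among the mutant hearts, mutant 8 was highest for Gpi1, Aldoa, Aldoc and Gapdh and lowest for Pgk1. Relative to the control mean on the log2 scale, mutant 8 stood at -1.24 for Pgk1 and at -0.26 for Gapdh. The median of the 6 members relative to the control mean ran from -0.14 to 0.13 over the control hearts and was -0.75 in mutant 5, -0.69 in mutant 8 and -0.83 in mutant 10, so no mutant heart stood apart in the set as a whole.

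In the rest of glycolysis, 6 of 23 tested genes fell and none rose, where 0.398% of all tested genes passed as lower and 0.42% as higher (29 were listed, of which 26 are in the table). The median log2 change of these 23 was -0.19. The genes that fell were the glucose transporter Slc2a3 (-0.90), the liver-type phosphofructokinase Pfkl (-1.44), the enolase Eno1 (-0.72), the pyruvate kinase Pkm (-0.67), the lactate dehydrogenase subunit Ldha (-1.38) and the lactate transporter Slc16a3 (-1.50). Of those that did not pass, Pgam1, the mutase that follows Pgk1 in the pathway, had the most negative log2 change (-0.50, limma adjusted p = 0.12) and hexokinase Hk1 the most positive (0.26, adjusted p = 0.49). The count was 3 of 23 without control 5, control 9 or mutant 10, and also among the 4 hearts that expressed Eif2s3y.

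Of 28 tested genes in routes that branch off or feed into middle glycolysis, none fell and 2 rose, with a median log2 change of 0.07. Of all tested genes 0.398% passed as lower and 0.42% as higher. The 2 genes that rose were Phgdh, which commits 3-phosphoglycerate to serine synthesis (32.2 ± 1.59 RPKM in the control and 70.7 ± 2.76 RPKM in the mutant group, a log2 change of 1.11, limma adjusted p = 0.00056), and Pck2, the mitochondrial phosphoenolpyruvate carboxykinase (7.02 ± 0.865 and 12.51 ± 0.898 RPKM, log2 change 0.76, limma adjusted p = 0.017). Without control 5 or without mutant 10, Phgdh alone passed. Psat1, the next enzyme of serine synthesis, had the largest positive log2 change among the others (0.47, limma adjusted p = 0.061), and Pgd of the pentose phosphate route the most negative (-0.17, adjusted p = 0.53). After median centring and with a minimum of 5 RPKM the count was 3, with Psat1 added (limma adjusted p = 0.035 and 0.044). None of 7 pentose phosphate, 8 hexosamine and mannose and 7 triose phosphate genes passed, where 0.818% of all tested genes did. Their median log2 changes were -0.02, 0.07 and 0.02.

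The genes most like the 6 members across the 6 libraries were ranked by the Pearson correlation of log2(RPKM + 1) with the mean of the members' standardised values, leaving out non-coding and predicted symbols. The first 10 were Prelid1, Fbxl13, As3mt, Eno1, Grhpr, Pkm, Slc16a3, Pfkl, Loxl2 and Bcl6b, with r between 0.986 and 0.997. Eno1, Pkm, Slc16a3 and Pfkl among them belong to the glycolysis list above. Over 6 libraries in 2 groups such values are set mostly by the difference between genotypes and are given as a description. Prelid1 (143 and 107 RPKM, limma adjusted p = 0.092) and As3mt (11.6 and 8.68 RPKM, adjusted p = 0.14) did not pass the test, while Loxl2, a lysyl oxidase (42.1 and 23.0 RPKM, limma adjusted p = 0.011), did.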

How the data were processed

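Total RNA from 6 hearts was made into Illumina libraries, per the labels' protocols. The submitters' processing notes name Trim Galore, TopHat2 and mm10. The authors' columns give Ensembl genes and, for each, the exons used, under a header that calls them constitutive. Counter, annotation release and use of strand were not given in the sources used here. Values deposited by the authors are RPKM on a linear scale, in 1 table with a column per heart and no unit in its header. The values bear out the unit. For genes of 1 exon 85.7% to 90.6% of low values lay within 0.1 of a whole number of reads at the implied depth. That depth was chosen for this fit, and the median over the depths searched was 19.1% to 19.8%. No pair of libraries was identical. RPKM do not allow a count test, so limma 3.58.1 in R 4.3.3 was fitted, with a mean-variance trend, to log2(RPKM + 1) of all 6 hearts and the 13080 genes that reached 1 RPKM in 3 or more libraries (2038 not tested), with Benjamini-Hochberg adjustment over all of them and a threshold of 0.05, two-sided.

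The members and lists were chosen with earlier results of these data known. Named genes are the 6 members, their paralogs and copies by sequence, the pathway genes past the threshold with the most extreme others, Hif1a and the 10 genes most alike. On simulated data for 13080 genes in this comparison, 49.8% of changes of 0.6 and 81.8% of changes of 1 (log2) were recovered, with 5.25% false calls. Each of 5 runs changed 200 genes and drew normal noise independently for each gene. Variation shared between genes, as in the first principal component, was not simulated, so these rates may not hold for the hearts. Gene positions come from GENCODE M21, copies from blastn 2.17.0 against its transcripts (at least 500 bases and 90% identity), promoters from RefSeq (all 6 members matched). Ratios to Gapdh were tested by exact permutation over hearts. The genotypes share 1 sample number, so no block was fitted. Alternatives covered the filter, pseudocount, scaling, prior and each heart left out, and the counts and sums over Gapdh copies were added after seeing the data. Python 3.11.15 and matplotlib 3.10.9 were used.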

Additional observations from a re-analysis of the deposited data

How the results depend on the processing

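Over 16 alternative settings the number of members past the threshold was 3, except for 4 after rescaling without haemoglobin genes, with a robust prior and in the 4 hearts without control 2 and mutant 8 (Aldoa added each time) and 2 among the 4 hearts that expressed Eif2s3y (Tpi1 lost). Aldoa also passed with a minimum of 5 RPKM (limma adjusted p = 0.042), where Aldoc was not tested. All 6 members kept a negative log2 change in every setting that tested them. Leaving out each heart gave 3 members throughout, 3 to 6 other glycolysis genes, 1 to 2 side-branch genes, 45 to 198 of all tested genes against 107, and 0 to 17 Gapdh copies. Among the 4 hearts that expressed Eif2s3y these last 4 counts were 3, 1, 54 and 0. In the 4 hearts without control 2 and mutant 8 they were 7, 2, 96 and 0. Those hearts still differed along the first principal component, with -8.00 and -0.15 in controls 5 and 9, against -5.71 and 9.04 in mutants 5 and 10. Lower calls among all genes were 52 of 107, 34 of 91 after median centring and 81 of 135 after rescaling without haemoglobin genes. Centring shifted the median of all genes by 0.03 and rescaling by -0.04 (log2). No paired analysis was possible because the genotypes share only 1 sample number. Depth limits none of the abundant members, since the largest counting SD outside Aldoc was 0.006 (log2).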
